A study of Homo sapiens with 18 samples.

Results

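The response of Molm-14 cells to RMC-4550 was described from 6 of the 18 libraries of the series, 3 from cells given RMC-4550 at 500 nM and 3 from cells given the vehicle DMSO, each for 24 h. Genes at 1 CPM or more in at least 3 of these 6 libraries were tested, which left 14020 of the 40184 gene IDs deposited. A gene under 1 CPM throughout 1 group was tested only if it reached that level throughout the other. Such a gene entered through the group where it is high. Levels are given in CPM, the reads of a gene scaled to a common library size as the authors scaled them, and are not divided by gene length. Molm-14 is an established human cell line of acute myeloid leukaemia with the genotype FLT3-ITD, an internal tandem duplication that keeps the receptor tyrosine kinase FLT3 active. Both groups grew in RPMI medium with fetal bovine serum and without added GM-CSF. The other lines of the series, used below for 1 comparison, were MV4-11 (FLT3-ITD) and SKNO-1 (KIT N822K, grown with GM-CSF at 10 ng/mL). The titles number the replicates as biological, and nothing says whether they came from cultures kept apart before treatment. The p-values therefore measure the spread between samples within groups, pooled over all 18 libraries and not taken from Molm-14 alone. As all 6 Molm-14 libraries are of 1 cell line, they say nothing of the spread between patients.

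RMC-4550 is an allosteric inhibitor of SHP2, the phosphatase encoded by PTPN11. SHP2 relays signals from receptor tyrosine kinases such as FLT3 to the RAS GTPases, which activate the RAF, MEK and ERK kinases. ERK activity raises the transcription of its own inhibitors, the Sprouty, SPRED and DUSP proteins, and of ETS factors, and it is linked to MYC, the D cyclins, growth and division. In myeloid cells, an end to division goes along with the genes of mature monocytes and granulocytes.

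Molm-14 libraries held between 17535330 and 19731566 reads. Reads of mitochondrially encoded genes made up 5.07% to 6.55% of 5 of them and 15.02% of the second treated library, treated replicate 2. This library stood apart: its log2 level differed from the mean of treated replicates 1 and 3 by more than 1 for 11.6% of the genes that have an annotated length, against 0.763% between replicates 1 and 3. Its difference from the other treated libraries ran against transcript length, with a Spearman coefficient of -0.25 across genes, which are not independent replicates. The nuclear RNA NEAT1 stood at 161, 147 and 159.9 CPM with DMSO and 256, 816 and 275 CPM with RMC-4550, with a log2 change of 1.31 (0.77 without this library). MALAT1 stood at 1644, 1459 and 1422 CPM with DMSO and 1938, 9457 and 2559 CPM with RMC-4550 (not called, adjusted p = 0.057 in limma). Both were several times higher in treated replicate 2 than in replicates 1 and 3, and were chosen for this after their values were seen. The median SD of log2 values was 0.072 among the DMSO libraries and 0.27 among the treated ones, and 0.081 between treated replicates 1 and 3 alone. The part of this library in each result was measured by leaving it out.

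Markers of the labelled cell type were present in all 6 libraries. FLT3 stood at 621, 613 and 633 CPM with DMSO and 597, 484 and 586 CPM with RMC-4550. PTPRC, the pan-leukocyte antigen CD45, stood at 536, 536 and 514 CPM with DMSO and 608, 481 and 578 CPM with RMC-4550. HOXA9 and MEIS1, the homeobox genes of KMT2A-rearranged leukaemia, and the myeloid factor SPI1 were also well read. Among markers of other blood lineages, HBA1, GATA1, PF4, PPBP, CD3D and CD3E had 0 reads in all 6 libraries. The B cell factor PAX5 was read in this line, and is described below. CD14, the monocyte antigen, had 1 to 9 reads per library and was not tested.

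With RMC-4550, 3009 genes were higher (21.5% of the 14020 tested) and 3525 were lower (25.1%), at an adjusted p under 0.05 in limma. Genes that pass this threshold are called higher or lower from here on. At least 2-fold, 1089 were called higher (7.77%) and 834 lower (5.95%). Without treated replicate 2 the calls numbered 2786 (19.9%) and 2910 (20.8%), and 2463 of the higher (17.6% of genes tested) and 2686 of the lower calls (19.2%) were made both with and without it. No call changed direction. The median log2 change over all genes tested was -0.06. Each list below is read against it and against the shares of 21.5% called higher and 25.1% called lower. The libraries of the groups did not overlap for 26.9% of genes on the higher side and 33.0% on the lower. Nearly all calls had the same sign in each treated library, namely 99.98% in replicate 1, 99.8% in replicate 2 and 99.98% in replicate 3. The calls were selected on these same libraries, so these shares are no separate check of how well the libraries match.

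**Figure D1:**
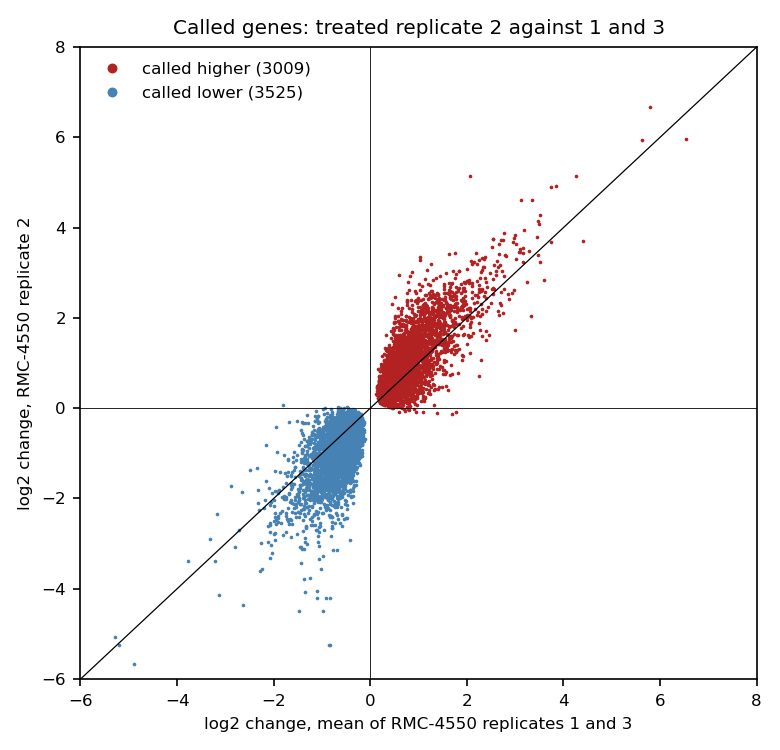
Log2 change against the DMSO mean of the 6534 genes called, in treated replicate 2 (vertical axis) and as the mean of treated replicates 1 and 3 (horizontal axis). Each point is a gene, coloured by its call, and the diagonal marks equal change. Most points lie farther from 0 in replicate 2 than in the other 2 libraries.

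The members of the SHP2 and RAS pathway were themselves spread over both directions. Of 38 tested, 14 were called higher (36.8%, against 21.5% of all genes) and 8 lower (21.05%, against 25.1%), with a median of -0.16. PTPN11 (GRCh38.p14, chr12:112418947-112509918) stood at 246, 229.8 and 251 CPM with DMSO and 154, 84.9 and 135 CPM with RMC-4550. The treated libraries lay below all DMSO libraries (log2 change -1.0, SE 0.21, adjusted p = 0.0013), and the change was -0.74 without treated replicate 2. Of its relative PTPN6, which encodes SHP1, and of FLT3 itself, the log2 changes of -0.15 and -0.17 did not pass the test, though PTPN6 was called lower without treated replicate 2, at -0.27. Among the exchange factors and adaptors that load RAS, RASGRP4 went from 24.2 ± 1.27 to 45.6 ± 6.66 CPM and GAB3 from 26.3 ± 1.59 to 44.04 ± 4.63 CPM (SD, n = 3 here and below), and both were called higher. KSR1, a scaffold that joins RAF, MEK and ERK, rose by 1.16, and the RAS relatives RRAS and MRAS rose by 0.94 and 0.57. MAP2K2, which encodes MEK2, rose by 0.397, while MAP2K1, which encodes MEK1, fell by 0.52, a call that was lost without treated replicate 2 (adjusted p = 0.13).

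The GTPase-activating proteins, which switch RAS off, divided into genes that rose and genes that fell. RASAL1 stood at 0.111, 0.288 and 0.167 CPM with DMSO and 1.53, 1.22 and 1.64 CPM with RMC-4550 (log2 change 2.85, SE 0.49, adjusted p = 0.00021). It passed the filter through the treated libraries alone. RASA3 stood at 188, 191 and 195 CPM with DMSO and 352, 368 and 336 CPM with RMC-4550, and each treated library was above every DMSO library (log2 change 0.88, SE 0.08, adjusted p = 5.8e-07). RASA4, which has near-identical copies, was called higher too, at 1.21. DAB2IP fell by 1.61 and RASA2 by 0.73. NF1, the gene of neurofibromatosis, fell by 0.44 with treated replicate 2 and was not called without it (adjusted p = 0.15).

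ERK output genes fell unevenly. Of 28 tested, 17 were called lower and 3 higher, with a median of -0.71 (-0.60 without treated replicate 2). All 3 ETS factors of the PEA3 group were called lower: ETV5 stood at 61.5, 59.3 and 60.2 CPM with DMSO and 14.5, 5.06 and 11.2 CPM with RMC-4550. ETV4 stood at 17.4, 20.8 and 21.6 CPM with DMSO and 2.296, 1.09 and 2.21 CPM with RMC-4550. ETV1 stood at 3.06, 3.92 and 3.51 CPM with DMSO and 0.711, 0.256 and 0.679 CPM with RMC-4550. Treated replicate 2 was the lowest library for each of them, and the groups did not overlap. Without it the changes of ETV5 and ETV1 were -2.24 and -2.28, against -2.68 and -2.72 with it.

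Feedback inhibitors moved in opposite directions within 1 family. SPRY4 stood at 10.00, 11.1 and 8.13 CPM with DMSO and 0.383, 0.897 and 1.19 CPM with RMC-4550. SPRY2 stood at 56.5, 57.4 and 56.8 CPM with DMSO and 22.4, 11.8 and 25.1 CPM with RMC-4550, and SPRED1 and SPRED2 were also called lower, at -1.32 and -0.74. SPRED3 was the exception: it stood at 10.6, 9.86 and 12.03 CPM with DMSO and 23.3, 24.98 and 23.5 CPM with RMC-4550, above DMSO in every treated library (log2 change 1.15, SE 0.17, adjusted p = 4.6e-05). The ERK phosphatase genes DUSP4, DUSP6 and DUSP7 had log2 changes of -0.92, -0.62 and -0.86. DUSP5 was called lower at -0.67 and lost the call without treated replicate 2 (adjusted p = 0.082).

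Early response factors did not follow the feedback genes. FOS stood at 165, 171 and 179 CPM with DMSO and 247, 284 and 235 CPM with RMC-4550 (log2 change 0.57, SE 0.12, adjusted p = 0.0011) and JUNB rose by 0.396, while EGR1 fell by 0.59 and FOSL1 by 0.92. EGR2, FOSB, IER2, IER3 and MAFF were not called, with log2 changes between 0.05 and 0.29. Without treated replicate 2, EGR1 changed by -0.37 and FOSB was called higher at 0.295. Of the remaining targets, CCND1, which encodes cyclin D1, stood at 15.7, 17.9 and 18.2 CPM with DMSO and 4.92, 3.203 and 3.85 CPM with RMC-4550, and PHLDA1 and PLAUR were called lower at -0.83 and -0.79.

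**Figure D2:**
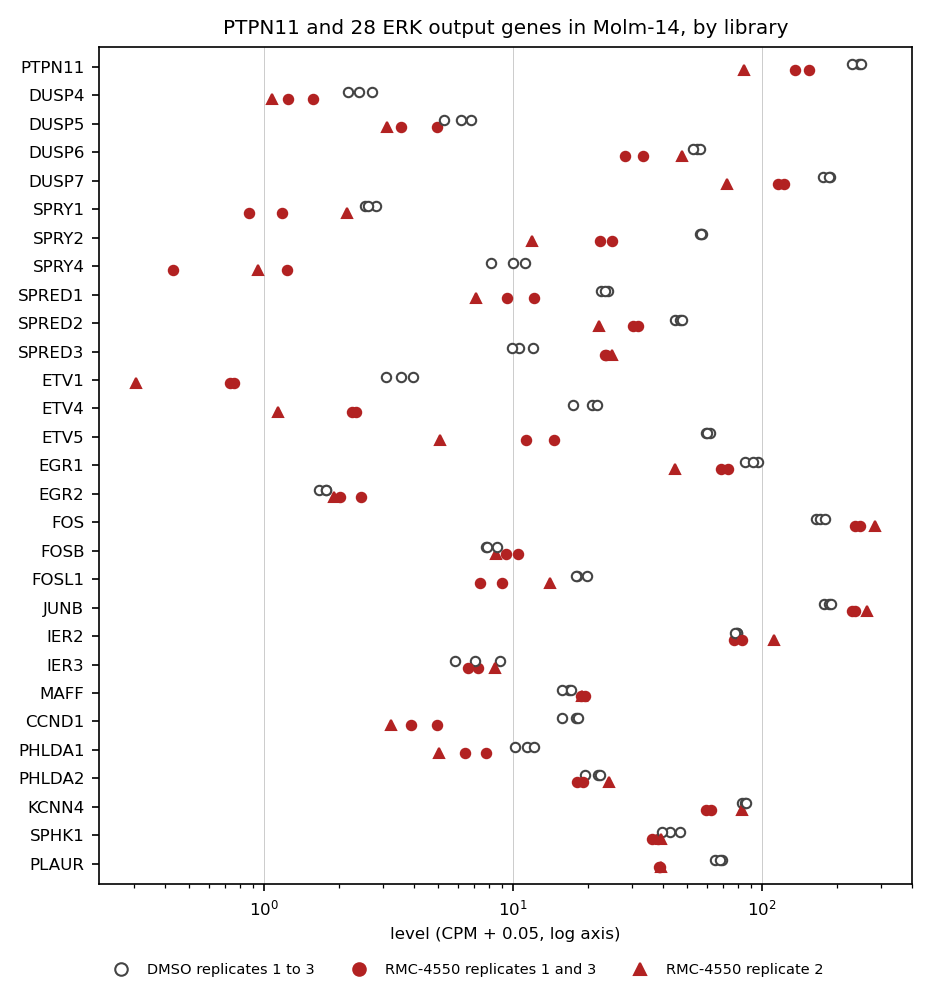
Level of PTPN11 and of the 28 ERK output genes tested in each of the 6 Molm-14 libraries, as CPM plus 0.05 on a log axis. White circles are the 3 DMSO libraries, red circles treated replicates 1 and 3, and red triangles treated replicate 2. ETV4, SPRY4 and CCND1 are far to the left after treatment, and SPRED3, FOS and JUNB are to the right.

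Of 17 genes linked to STAT5, the other main transcription pathway below FLT3-ITD, 5 were called higher (29.4%, against 21.5% of all genes) and 6 lower (35.3%, against 25.1%). Of the 5 higher, 4 encode SOCS proteins or CISH, inhibitors of cytokine signalling. SOCS1 stood at 6.56, 6.92 and 7.13 CPM with DMSO and 19.2, 25.5 and 21.2 CPM with RMC-4550 (log2 change 1.66, SE 0.17, adjusted p = 1.4e-06), and SOCS3, CISH and SOCS2 rose by 0.85, 0.67 and 0.28. PIM2, a kinase that supports survival, rose by 0.91, while PIM1 fell by 0.203, a call that was lost without DMSO replicate 1 or 2 or treated replicate 1 or 3 (adjusted p from 0.056 to 0.084 in limma). Among receptor tyrosine kinases, CSF1R, the receptor for the monocyte growth factor M-CSF, stood at 10.2, 12.9 and 14.7 CPM with DMSO and 78.1, 55.2 and 77.4 CPM with RMC-4550 (log2 change 2.47, SE 0.17, adjusted p = 3.3e-08). Its treated and DMSO levels were far apart. AXL rose by 1.24 and its relative TYRO3 fell by 1.86. KIT had 2 to 6 reads in the DMSO libraries and 15 to 26 in the treated ones, and was too low to be tested. Of the cytokine receptors, CSF3R, the receptor for G-CSF, went from 246 ± 3.21 to 494 ± 133 CPM, IL10RA from 20.7 ± 1.46 to 52.9 ± 14.8 CPM and TNFRSF1B from 65.3 ± 3.81 to 143 ± 26.5 CPM, all called higher.

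MYC, the factor that drives ribosome production and growth genes, stood at 262, 269 and 275 CPM with DMSO and 126, 34.3 and 127 CPM with RMC-4550. All treated libraries were below all DMSO libraries (log2 change -1.71, SE 0.44, adjusted p = 0.0049), but the size depended on treated replicate 2, since the change was -1.09 without it (adjusted p = 0.021). Its network of 11 genes tested held 3 called higher (27.3%, against 21.5% of all genes) and 2 called lower (18.2%, against 25.1%). Without treated replicate 2 these were 3 and 1. Antagonists and partners of MYC went both ways: MXD4 and MLXIP rose by 0.49 and 0.89 and MXD3 was called higher, while MXD1 was called lower. Of 52 genes for ribosome biogenesis tested, 46 were called lower and 0 higher, with a median of -0.84. This included all 33 nucleolar processing genes, with the helicase DDX21 from 419 ± 6.84 to 171 ± 12.1 CPM, the RNA polymerase I cofactor NOLC1 from 193 ± 2.75 to 79.9 ± 16.9 CPM and nucleolin, NCL, from 817 ± 13 to 399.7 ± 72.7 CPM. In contrast, of the 76 genes for the proteins of the cytosolic ribosome, 3 were called higher and 2 lower, with a median of 0.12. Among subunits of the mitochondrial ribosome, 27 of 58 were called lower and 1, MRPS6, was called higher, from 20.2 ± 2.37 to 56.1 ± 7.71 CPM.

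Genes around protein synthesis and folding fell with those of ribosome assembly. Of 20 aminoacyl-tRNA synthetases, which charge tRNAs, 17 were called lower, with VARS1 from 247 ± 22.2 to 104 ± 21.5 CPM and GARS1 from 286 ± 6.32 to 128 ± 28.3 CPM. All 10 amino acid transporters tested were called lower (8 without treated replicate 2), and the largest fall was that of SLC7A1, the carrier of arginine and lysine, which stood at 125, 137 and 142 CPM with DMSO and 46.4, 24.1 and 40.1 CPM with RMC-4550. Of 26 translation factors, 12 were called lower and 0 higher. EIF4E, which binds the cap of mRNAs, went from 47.5 ± 3.43 to 20.2 ± 4.05 CPM, whereas the elongation factor EEF1A1 changed by -0.19 and was not called. Of 35 chaperones, 28 were called lower and 0 higher, with a median of -0.87 (-0.60 without treated replicate 2). HSP90AB1 stood at 2264, 2344 and 2372 CPM with DMSO and 1337, 861 and 1362 CPM with RMC-4550. TCP1 of the chaperonin complex stood at 404, 409 and 422 CPM with DMSO and 234, 132 and 237 CPM with RMC-4550. The mitochondrial chaperonin HSPD1 stood at 719, 717 and 718 CPM with DMSO and 353, 220.2 and 356 CPM with RMC-4550. In each the treated libraries lay below those with DMSO. HSPA8 stood at 1141, 1209 and 1251 CPM with DMSO and 607, 124 and 618 CPM with RMC-4550, and its call rested on treated replicate 2 (adjusted p = 0.035 with it and 0.19 without it).

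The proteasome, which breaks proteins down, showed smaller falls: 28 of 35 subunits were called lower and 0 higher, with a median of -0.48. All 5 genes of the immunoproteasome, the form induced by interferon, were among them, with PSME2 at -0.598 and PSMB8 at -0.54. Of 26 importins, exportins and pore proteins, 23 were called lower, with NUP210 at -1.31 and CSE1L at -1.29. Of 33 splicing factors, 18 were called lower and 3 higher. RBM39 rose by 0.49 and SF3B1 by 0.396, while HNRNPAB fell by 1.02 and SRSF1 by 0.96.

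**Figure D3:**
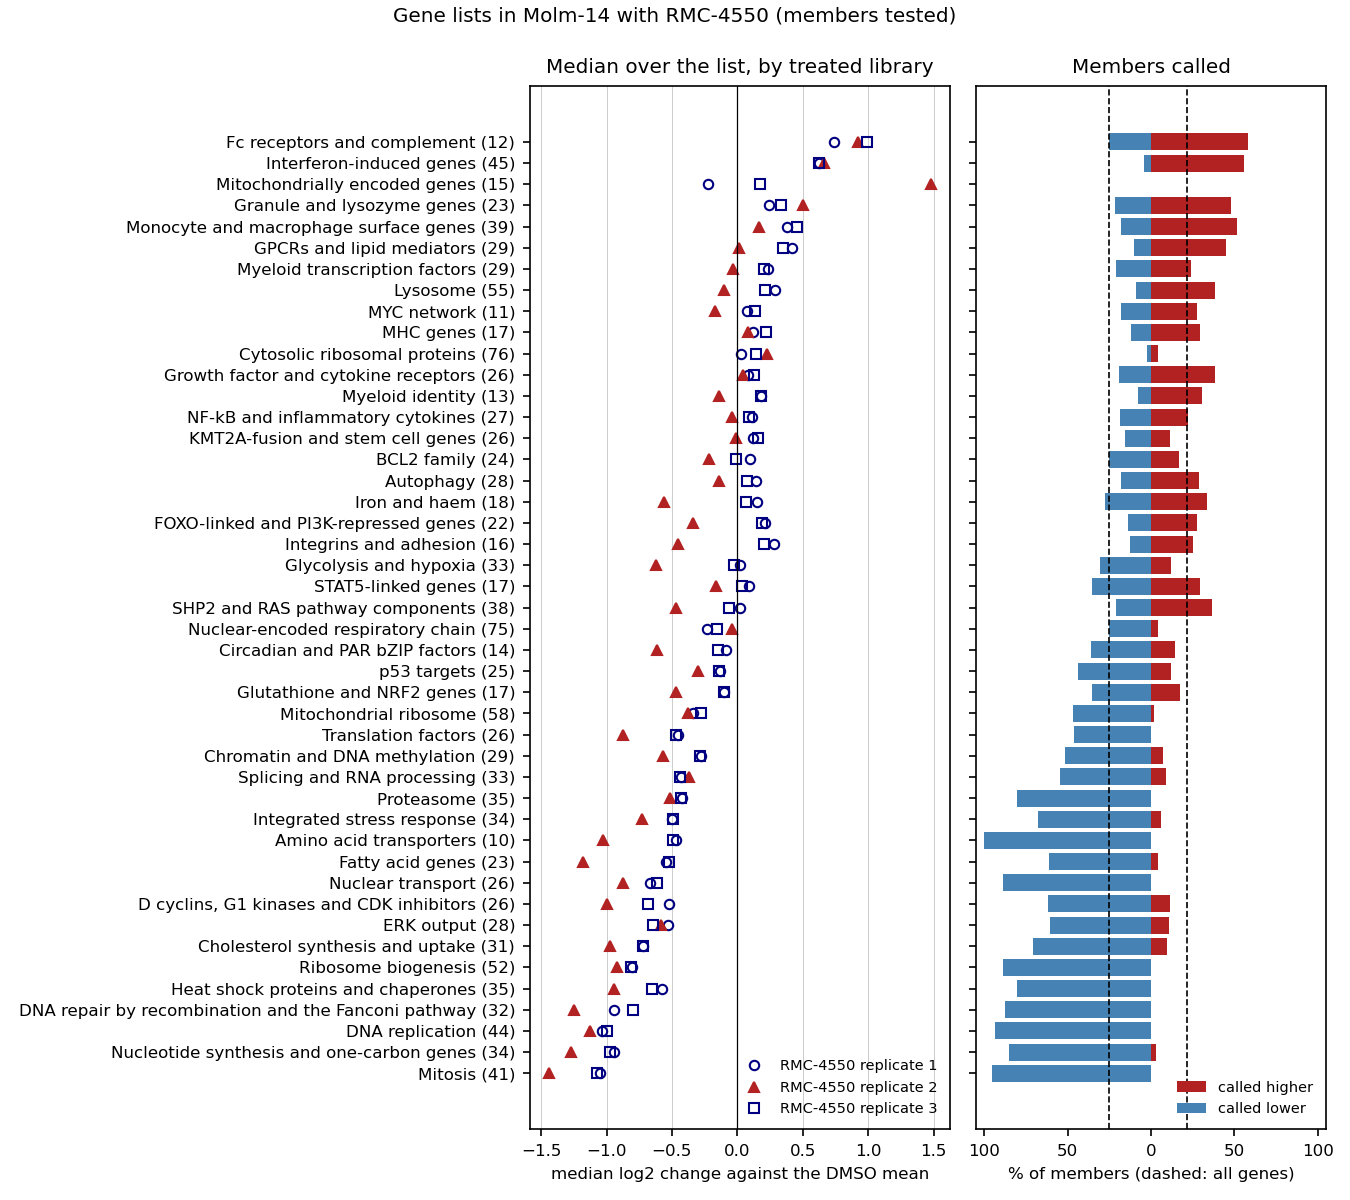
For 45 gene lists, the left panel gives the median log2 change over the members tested in each treated library against the DMSO mean, and the right panel the percentage of members called higher or lower. Dashed lines mark 21.5% higher and 25.1% lower, the shares of all genes tested. The replication, mitosis and nucleotide lists are at the bottom with medians near -1 or below in every treated library, and the mitochondrially encoded genes differ most between libraries.

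Genes of the cell division cycle were mostly lower. In bulk RNA, fewer dividing cells and less RNA of these genes per cell cannot be told apart. Of the D cyclins, CCND2 and CCND3 were called lower at -0.797 and -0.42. Cyclin E2, CCNE2, went from 12.7 ± 0.985 to 3.56 ± 0.4902 CPM and E2F1, the factor that switches on genes for the S phase, from 34.1 ± 2.395 to 11.7 ± 1.01 CPM. TFDP1, the partner with which E2F factors bind DNA, stood at 297, 299 and 302 CPM with DMSO and 151, 64.95 and 141 CPM with RMC-4550 (log2 change -1.43, SE 0.26, adjusted p = 0.00041). In contrast, 3 of the 5 CDK inhibitors tested were called higher. CDKN1C, which encodes p57, stood at 2.67, 2.42 and 2.56 CPM with DMSO and 14.8, 23.1 and 18.3 CPM with RMC-4550 (log2 change 2.84, SE 0.202, adjusted p = 4.1e-08). CDKN2D and CDKN2C rose by 0.501 and 0.37, while the change of 0.29 in CDKN1A, which encodes p21, and of -0.299 in CDKN1B, which encodes p27, did not pass the test. Without treated replicate 2, CDKN1A was called higher at 0.53, and the change of CCND3 was -0.24.

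Of 44 DNA replication genes, 41 were called lower and 0 higher, with a median of -1.07 (-1.02 without treated replicate 2, where 35 were called lower). The helicase gene MCM4 stood at 355, 351 and 364 CPM with DMSO and 123, 71.7 and 118 CPM with RMC-4550. MCM6 stood at 114, 116 and 123 CPM with DMSO and 46.6, 27.2 and 39.9 CPM with RMC-4550. MCM3 stood at 202, 200.3 and 209.8 CPM with DMSO and 101, 80.1 and 99.03 CPM with RMC-4550. In these genes each treated library was below every DMSO library, and the log2 changes were -1.81, -1.67 and -1.13. The helicase cofactor CDC45 went from 42.1 ± 0.756 to 11.6 ± 1.06 CPM, the primase PRIM1 from 20.97 ± 0.888 to 7.27 ± 3.302 CPM and the nuclease FEN1 from 61.4 ± 2.63 to 21.2 ± 2.24 CPM. MCM2 stood at 70.1, 81.7 and 83.1 CPM with DMSO and 31.3, 3.46 and 24.8 CPM with RMC-4550, so that its mean change of -2.48 rested on treated replicate 2, and it was not called without that library (adjusted p = 0.08). ORC1, ORC5, RFC1, RPA1 and PRIM2 likewise lost their calls without it.

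Promoters of the replication genes were searched for 2 forms of the site bound by E2F factors, TTCCCGCC and TTTGGCGC, on both strands of the 300 bases from 250 before to 50 after the gene start (RefSeq, GRCh38.p14). Of 38 replication promoters found, 23.7% held the first form, against 5.22% of the 9930 promoters of genes tested and 3.18% of 27305 promoters in all. The second form was in 15.8% of them, against 1.13% and 0.659%. The promoters of MCM6 (chr2:135876444-135876693, minus strand) and MCM3 (chr6:52284743-52284992, minus strand) are shown up to the gene start, and hold 2 matches each. They were picked among called list members by the number of matches, with ties broken by the size of the change. Capitals mark the matches, and GGCGGGAA is the first form read on the other strand.
MCM6: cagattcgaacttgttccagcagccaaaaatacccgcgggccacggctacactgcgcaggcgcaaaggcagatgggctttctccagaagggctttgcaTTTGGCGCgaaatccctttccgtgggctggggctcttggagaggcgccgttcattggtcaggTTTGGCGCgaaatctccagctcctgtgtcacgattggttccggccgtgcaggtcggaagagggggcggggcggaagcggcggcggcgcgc
MCM3: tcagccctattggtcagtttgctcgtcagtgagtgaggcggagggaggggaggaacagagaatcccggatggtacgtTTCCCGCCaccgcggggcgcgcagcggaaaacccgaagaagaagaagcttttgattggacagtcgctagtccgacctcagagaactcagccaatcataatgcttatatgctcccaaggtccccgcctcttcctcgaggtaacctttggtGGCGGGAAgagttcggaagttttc
In MCM6 both sites are followed by gaaatc, and lie 152 and 90 bases before the gene start. A match describes the letters and not binding of a factor.

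Mitosis genes were called lower in 39 of 41 cases and higher in 0, with a median of -1.23 (-1.05 without treated replicate 2). MYBL2, a factor that activates genes for G2 and mitosis, stood at 192, 186 and 188 CPM with DMSO and 58.1, 40.7 and 57.2 CPM with RMC-4550 (log2 change -1.88, SE 0.12, adjusted p = 2e-08). CDC25A, the phosphatase that activates CDK2 and CDK1, went from 22.7 ± 0.582 to 5.15 ± 1.29 CPM, the mitotic kinase BUB1 from 85.6 ± 1.85 to 30.8 ± 7.09 CPM, and the proliferation antigen MKI67 from 325 ± 18.3 to 137 ± 35.7 CPM. The exceptions were CDC25B and PRC1, at 0.08 and -0.23, neither of them called. The CCAAT box, searched as CCAAT on both strands, was in 71.4% of the 35 mitosis promoters found, against 36.9% of the promoters of genes tested.

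Repair genes fell with replication: 28 of 32 genes for recombination and the Fanconi pathway were called lower and 0 higher. EXO1, the nuclease that resects ends, went from 45.1 ± 1.47 to 10.2 ± 1.95 CPM, and BRIP1, a helicase, from 26.9 ± 1.103 to 7.96 ± 1.27 CPM. XRCC3, FANCF, FANCG and FANCL were not called, though FANCG was called lower without treated replicate 2 (adjusted p = 0.049). Of 34 genes for nucleotides and one-carbon units, 29 were called lower and 1 higher. RRM2, the small subunit of ribonucleotide reductase, stood at 145, 149.5 and 145 CPM with DMSO and 40.3, 25.2 and 41.1 CPM with RMC-4550 (log2 change -2.08, SE 0.203, adjusted p = 9.3e-07). PSAT1, of serine synthesis, stood at 199, 197 and 194 CPM with DMSO and 52.6, 54.8 and 52.3 CPM with RMC-4550. GART, of purine synthesis, stood at 117, 120.5 and 127 CPM with DMSO and 56.8, 29.6 and 53.3 CPM with RMC-4550. All were lower in each treated library than in each DMSO library. The gene called higher was TYMP, which degrades thymidine, from 20.3 ± 1.34 to 44.8 ± 7.22 CPM. Among chromatin genes, UHRF1 and DNMT1, which copy DNA methylation after replication, had log2 changes of -1.28 and -1.03, and EZH2 fell by 0.77 while its paralogue EZH1 rose by 0.77.

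Histone genes ran against the rest of the replication programme. Of 15 genes for replication-dependent or H1 histones tested, 13 were called higher and 0 lower, a list made after the data were seen. H2AC6 stood at 11.5, 10.4 and 11.1 CPM with DMSO and 71.1, 55.4 and 71.1 CPM with RMC-4550 (log2 change 2.57, SE 0.11, adjusted p = 2.1e-10) and H2BC5 went from 2.83 ± 0.359 to 15.4 ± 4.09 CPM. Such transcripts mostly lack poly(A) tails in dividing cells and the libraries were made from RNA with such tails, so these values are of the polyadenylated transcripts only.

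Lipid synthesis fell across whole pathways. All 12 fatty acid synthesis genes were called lower, with a median of -1.28 (-1.10 without treated replicate 2), and 21 of 23 cholesterol synthesis genes, with a median of -1.12. SCD, the desaturase that makes oleic acid, stood at 1938, 1942 and 2019 CPM with DMSO and 491, 240.5 and 450.5 CPM with RMC-4550 (log2 change -2.39, SE 0.25, adjusted p = 1.9e-06). FASN, the fatty acid synthase, stood at 518, 566 and 612 CPM with DMSO and 177, 146 and 149.7 CPM with RMC-4550. HMGCS1, of the first committed steps towards cholesterol, stood at 213, 212 and 221 CPM with DMSO and 44.8, 27.3 and 44.7 CPM with RMC-4550. The treated levels of each were well below those with DMSO. DHCR7, the reductase of the last step, went from 118 ± 5.05 to 27.4 ± 5.68 CPM, and SQLE, the squalene epoxidase, from 102 ± 1.44 to 24.03 ± 5.97 CPM. The sterol sensor INSIG1 went from 349.9 ± 10.6 to 93 ± 20.3 CPM, and the master factors SREBF1 and SREBF2 changed less, at -0.32 and -0.57. The call of SREBF2 was lost without treated replicate 2. The synthesis genes not called were TM7SF2, at 0.31, and CYP51A1, which stood at 3.22, 3.29 and 4.46 CPM with DMSO and 1.53, 0 and 1.53 CPM with RMC-4550, with no read in treated replicate 2. Of the genes for efflux and handling, NR1H3, NPC2 and APOE were called higher, APOE only with treated replicate 2. Among fatty acid oxidation genes, 2 of 11 were called lower and 1 higher.

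Energy genes moved less. Of 21 glycolysis genes, 7 were called lower (33.3%, against 25.1% of all genes) and 1 higher (4.76%, against 21.5%), and 4 and 1 without treated replicate 2. LDHA stood at 2483, 2510.4 and 2470.0 CPM with DMSO and 1929, 1461 and 2028 CPM with RMC-4550. PGK1 stood at 975, 962 and 998 CPM with DMSO and 669, 297 and 623 CPM with RMC-4550, both called lower, and PGK1 changed by -0.599 without treated replicate 2. ENO1 stood at 2873, 2906 and 3118 CPM with DMSO and 2453, 1384 and 2327 CPM with RMC-4550, and its call, as those of TPI1 and PGAM1, was lost without that library. Of 75 nuclear genes for the respiratory chain, 19 were called lower (25.3%, close to the 25.1% of all genes). Only 3 were called higher (4%, against 21.5%), and the median was -0.17. Cytochrome c, CYCS, went from 193 ± 7.49 to 80.98 ± 9.76 CPM. The 15 mitochondrially encoded genes had a median of 0.47, none was called, and the median was -0.05 without treated replicate 2. Before adjustment, 1 of them, MT-ND3, was under 0.05 in limma (adjusted p = 0.054).

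Integrated stress response genes were divided: of 14 factors and targets, 6 were called lower (42.9%, against 25.1% of all genes) and 2 higher (14.3%, against 21.5%). CHAC1, TRIB3 and ASNS had log2 changes of -1.71, -0.82 and -1.25, while ATF4, the factor that activates them, went from 745 ± 2.08 to 982 ± 86.6 CPM and was called higher. Of the genes for glutathione and redox balance, HMOX1, which degrades haem, stood at 6.45, 7.55 and 7.02 CPM with DMSO and 35.3, 29.8 and 34.5 CPM with RMC-4550 (log2 change 2.24, SE 0.13, adjusted p = 4.2e-09), and PRDX1 and GSR had log2 changes of -1.396 and -0.88. FTL, the ferritin light chain, rose by 0.53 and BLVRB, which acts after HMOX1, by 0.58. ALAS1, the first enzyme of haem synthesis, fell by 1.198 (-0.73 without treated replicate 2).

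Interferon-induced genes included many that rose. Of 45 tested, 25 were called higher (55.6%, against 21.5% of all genes) and 2 lower, with a median of 0.50 (0.65 without treated replicate 2). The largest rises after SIGLEC1 were those of IFI44L, from 0.245 ± 0.0916 to 2.49 ± 0.455 CPM, and OASL, from 0.355 ± 0.111 to 2.13 ± 0.121 CPM. OAS1, which senses double-stranded RNA, stood at 11.2, 9.86 and 10.2 CPM with DMSO and 44.4, 41.5 and 43.7 CPM with RMC-4550 (log2 change 2.05, SE 0.08, adjusted p = 1.2e-10). IFIT3 stood at 2.83, 3.11 and 3.45 CPM with DMSO and 13.4, 17.8 and 14.8 CPM with RMC-4550. IFI6 stood at 2.83, 2.19 and 2.23 CPM with DMSO and 10.7, 17.3 and 9.22 CPM with RMC-4550. OAS2 stood at 3.94, 3.63 and 3.398 CPM with DMSO and 20.5, 16.3 and 18.4 CPM with RMC-4550. Every treated library lay above every DMSO library for each of these genes. IRF7, the factor that amplifies the response, went from 39.6 ± 3.09 to 115 ± 22.5 CPM, and IRF9 from 5.89 ± 0.559 to 12.2 ± 1.23 CPM. SIGLEC1, a macrophage lectin, had 0 reads in every DMSO library and 25 to 44 in the treated ones, at least 11.6-fold higher against a floor of 3 reads per library. SIGLEC1, IFI44L and OASL passed the filter through the treated libraries alone, and count among the 25 called higher. The rise was not shared by all members: IFIH1, XAF1, HERC5 and USP18 were not called, with log2 changes from -0.02 to 0.13, and BST2 and IRF2 had log2 changes of -0.71 and -0.57 (-0.37 for BST2 without treated replicate 2). No type I interferon transcript entered the test.

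The interferon response element, searched as GAAA, any 2 bases and again GAAA on both strands in the same promoter window, was in 54.8% of 31 interferon list promoters, against 3.00% of the promoters of genes tested and 3.65% of all. It was in 2.87% of the promoters of genes called higher and 2.77% of those called lower. The promoter of IFI6 (chr1:27672193-27672442, minus strand) holds 3 matches, in capitals, and was chosen after the values were seen.
IFI6: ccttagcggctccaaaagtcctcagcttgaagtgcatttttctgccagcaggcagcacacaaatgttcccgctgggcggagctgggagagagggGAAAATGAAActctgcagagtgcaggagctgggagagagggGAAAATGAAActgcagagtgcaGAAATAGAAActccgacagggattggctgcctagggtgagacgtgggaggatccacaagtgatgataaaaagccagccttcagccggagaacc
The first 2 matches lie in a repeated stretch, which is visible in the letters around them.

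Of 39 surface genes of monocytes and macrophages tested, 20 were called higher (51.3%, against 21.5% of all genes) and 7 lower (17.9%, against 25.1%), with a median of 0.35 (0.45 without treated replicate 2). Of the Siglecs, LILRs and like receptors among them, 7 of 16 were called higher and 2, SIRPA and SIRPB1, lower, with a median of -0.04 (0.16 without treated replicate 2). The call of SIRPA was lost without treated replicate 2 (adjusted p = 0.15 in limma) or without any 1 of the DMSO libraries (0.058 to 0.072). Of the Toll-like receptors and their partners, 3 of 5 were called higher and 1 lower. TLR2, which senses bacterial lipoproteins, had the largest fall of the list and stood at 4.17, 4.21 and 3.51 CPM with DMSO and 1.42, 1.79 and 1.47 CPM with RMC-4550. Of 6 Fc receptor genes, 5 were called higher and 1 lower. FCGR2B, the inhibitory receptor for IgG, stood at 72.7, 71.7 and 73.8 CPM with DMSO and 236, 281 and 243 CPM with RMC-4550 (log2 change 1.796, SE 0.11, adjusted p = 5.5e-09). FCGR2A stood at 51.1, 51.04 and 44.5 CPM with DMSO and 111, 138 and 116 CPM with RMC-4550. FCGRT, the neonatal Fc receptor, stood at 32.3, 29.3 and 29.7 CPM with DMSO and 71.2, 92.9 and 73.2 CPM with RMC-4550. FCGR2B and FCGR2C share most of their sequence, so reads could be divided between them in either way. FCGR1A, the high-affinity receptor, went down from 20.1 ± 0.614 to 10.9 ± 2.34 CPM. TYROBP, the adaptor of activating receptors, stood at 46.5, 40.5 and 42.7 CPM with DMSO and 109, 163 and 121 CPM with RMC-4550. CD86, a costimulator of T cells, stood at 7.45, 6.17 and 7.85 CPM with DMSO and 21.2, 25.1 and 23.3 CPM with RMC-4550, both above DMSO in every treated library. CD36 and ITGAX, which encodes CD11c, rose by 1.37 and 1.03, while ITGAM, which encodes CD11b, changed by -0.06 and was not called. CCR1 and CCR2, chemokine receptors of monocytes, had log2 changes of -0.34 and -0.79, the latter with treated replicate 2 only.

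Granule genes were described by type, and the difference between the types was not tested. Of the 11 genes for later granules, the NADPH oxidase and S100 proteins, 8 were called higher (72.7%) and 2 lower (18.2%; 5 and 1 without treated replicate 2). NCF1, the oxidase organiser p47, stood at 31.8, 31.9 and 33.3 CPM with DMSO and 114, 152 and 122 CPM with RMC-4550, and has pseudogenes of like sequence. S100A4 went from 83.7 ± 1.85 to 234 ± 12.6 CPM, and NCF4 from 77.4 ± 2.98 to 165 ± 58.4 CPM. S100A9, a subunit of calprotectin, went down from 27.6 ± 0.131 to 13.2 ± 5.04 CPM. Of the 12 primary granule genes, 3 were called higher and 3 lower, 25% each way, near the 21.5% and 25.1% of all genes. MPO, myeloperoxidase, went from 3.58 ± 0.711 to 1.53 ± 0.785 CPM, a call lost without treated replicate 2 (adjusted p = 0.094). CFD, complement factor D, stood at 311, 327 and 329 CPM with DMSO and 653, 755 and 665 CPM with RMC-4550. SRGN, the proteoglycan that packs granules, stood at 977, 936 and 924 CPM with DMSO and 474, 327 and 464 CPM with RMC-4550. Both changed in every treated library, in opposite directions. AZU1, PRTN3 and CTSG, proteases of the same granules, were not called, with changes between -0.304 and 0.18, and LYZ stood at 111, 109 and 112 CPM with DMSO and 125, 41.96 and 124 CPM with RMC-4550, lower in treated replicate 2 than in any other library.

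Lysosome genes rose more often than they fell: of 55 tested, 21 were called higher (38.2%, against 21.5% of all genes) and 5 lower, with a median of 0.14 (0.23 without treated replicate 2). CTSK, a collagen-degrading cathepsin, stood at 25, 27.6 and 28.7 CPM with DMSO and 55.5, 87.7 and 55.7 CPM with RMC-4550. CTSB stood at 229.7, 241 and 246 CPM with DMSO and 459, 398 and 448 CPM with RMC-4550. CTSD stood at 65.5, 63.1 and 68.5 CPM with DMSO and 147, 78.5 and 139 CPM with RMC-4550. Treated and DMSO libraries did not overlap for them. MCOLN1, the lysosomal calcium channel, went from 22.6 ± 2.003 to 34.8 ± 1.08 CPM, GAA, the acid glucosidase, from 116 ± 5.39 to 158 ± 13.9 CPM, and TFE3, a factor of the family that activates lysosome genes, from 71.9 ± 3.62 to 119 ± 13.2 CPM. LIPA and PPT1 had log2 changes of -0.71 and -0.41, LIPA with treated replicate 2 only. The E-box of lysosome genes, TCACGTGA, was in 7 of 35 lysosome promoters, called or not, against 2.01% of promoters of genes tested and 1.04% of all. This site was in 2.21% of the promoters of genes called higher and 1.88% of those called lower. It contains the shorter E-box CACGTG, which 31.4% of the lysosome promoters and 10.4% of those tested held. The promoters of MCOLN1 (chr19:7522374-7522623, plus strand) and GAA (chr17:80101331-80101580, plus strand) hold 2 copies each, in capitals. They were picked among called list members by the number of copies, with ties broken by the size of the change.
MCOLN1: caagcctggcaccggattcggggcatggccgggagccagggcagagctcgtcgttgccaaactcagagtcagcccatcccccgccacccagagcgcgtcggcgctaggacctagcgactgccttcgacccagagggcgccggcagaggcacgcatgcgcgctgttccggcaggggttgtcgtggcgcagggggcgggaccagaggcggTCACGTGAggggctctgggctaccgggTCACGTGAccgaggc
GAA: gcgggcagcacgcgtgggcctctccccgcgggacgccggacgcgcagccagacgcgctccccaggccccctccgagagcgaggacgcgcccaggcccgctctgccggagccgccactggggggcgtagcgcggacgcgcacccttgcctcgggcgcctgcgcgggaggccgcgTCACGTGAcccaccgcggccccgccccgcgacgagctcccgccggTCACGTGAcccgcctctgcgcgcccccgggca
In MCOLN1 the copies begin 42 and 15 bases before the gene start, and in GAA 77 and 32 bases before it.

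Genes for lipid mediators and their receptors held some of the largest changes. PTGDS, a prostaglandin D synthase, stood at 0.556, 0.461 and 0.836 CPM with DMSO and 11.2, 21.97 and 13.01 CPM with RMC-4550 (log2 change 4.56, SE 0.63, adjusted p = 3e-05). Of the leukotriene pathway, ALOX5 was called higher, from 0.453 ± 0.207 to 2.57 ± 0.276 CPM, and so was LTC4S, from 6.98 ± 0.9696 to 16.7 ± 2.46 CPM, while LTA4H changed by -0.02 and was not called. ALOX5AP, which activates ALOX5, went from 20.1 ± 1.84 to 49.6 ± 27.3 CPM and was called higher, but the call was lost when any library of Molm-14 other than treated replicate 2 was left out (adjusted p from 0.065 to 0.16 in limma). Its change was 1.09 with treated replicate 2 and 1.700 without it. The receptor GPR84, which binds medium-chain fatty acids, stood at 32.7, 31.1 and 31.1 CPM with DMSO and 3.17, 3.01 and 3.56 CPM with RMC-4550, below DMSO in every treated library. GPR183, which binds oxysterols, rose by 1.23, P2RX1, an ATP-gated channel, by 1.13, and CXCR4, which holds cells in the marrow, by 0.52. Among inflammatory genes, TNF stood at 84.6, 81.7 and 84.6 CPM with DMSO and 16.8, 19.3 and 16.4 CPM with RMC-4550 (log2 change -2.26, SE 0.12, adjusted p = 1.6e-09), with the 3 treated values close to each other. TNFAIP3, an inhibitor of NF-kB, fell by 0.78, whereas NFKBIA, another inhibitor, rose by 0.600 and BCL3 by 1.498.

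Of 17 MHC genes, which present antigens, 5 were called higher (29.4%, against 21.5% of all genes) and 2 lower (11.8%, against 25.1%). These genes have near-identical alleles and copies. B2M, the light chain of class I molecules, rose by 0.36, while the peptide transporter TAP2 went from 21.4 ± 1.69 to 8.09 ± 1.14 CPM and was called lower. The class II chaperone HLA-DMA rose by 1.08. Most class II genes were too low to be tested.

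Among myeloid transcription factors, 7 of 29 were called higher and 6 lower, near the shares of all genes. MAFA, a bZIP factor of the large MAF group, stood at 0.222, 0.0577 and 0.223 CPM with DMSO and 15.96, 10.95 and 16.5 CPM with RMC-4550 (log2 change 6.34, SE 0.49, adjusted p = 1e-07). RARA, the retinoic acid receptor, stood at 55.2, 57.3 and 60.00 CPM with DMSO and 134, 158 and 140.0 CPM with RMC-4550 (log2 change 1.32, SE 0.11, adjusted p = 1.5e-07), ID2 rose by 1.02 and KLF6 by 0.55. BATF3 and NR4A1 had log2 changes of -1.898 and -1.23. SPI1 was called higher at 0.48 with treated replicate 2 and not without it (adjusted p = 0.24). Of 26 KMT2A-linked and stem cell genes, 19 were not called. HOXA9 stood at 134, 136 and 141 CPM with DMSO and 149.7, 130.2 and 155 CPM with RMC-4550 and was not called. DOT1L, the methyltransferase recruited by KMT2A fusions, stood at 392, 412 and 412 CPM with DMSO and 222, 169 and 204 CPM with RMC-4550 (log2 change -1.04, SE 0.12, adjusted p = 6.4e-06). MYB, needed by progenitor cells, stood at 209.6, 204 and 216 CPM with DMSO and 122, 86.7 and 115 CPM with RMC-4550 (log2 change -0.98, SE 0.096, adjusted p = 1.1e-06). Both fell in every treated library.

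Of 24 genes of the BCL2 family and its downstream steps, which govern survival, 4 were called higher (16.7%) and 6 lower (25%), no more than the 21.5% and 25.1% of all genes. BMF, a BH3-only gene that promotes cell death, stood at 64.01, 67.9 and 68.5 CPM with DMSO and 331, 248 and 309 CPM with RMC-4550. BCL2, which prevents it, stood at 70.5, 77.7 and 74.98 CPM with DMSO and 35.6, 19.7 and 31.2 CPM with RMC-4550. MCL1 and BCL2L1, the other main survival genes, changed by -0.09 and 0.17 and were not called, nor was BCL2L11, which encodes BIM, at 0.25. Of 25 p53 targets, 11 were called lower (44%, against 25.1% of all genes) and 3 higher (12%, against 21.5%). Without treated replicate 2 the calls were 6 lower and 5 higher. GDF15 stood at 42.7, 42.6 and 42 CPM with DMSO and 11.5, 11.8 and 10.1 CPM with RMC-4550 and fell. BTG2, a brake on division, stood at 43.95, 41.3 and 44.6 CPM with DMSO and 91.8, 90.5 and 101 CPM with RMC-4550 and rose.

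The 15 largest rises among genes of at least 10 CPM included AGXT, a peroxisomal aminotransferase, at 1.72, 1.61 and 1.78 CPM with DMSO and 86.3, 106 and 85.6 CPM with RMC-4550 (log2 change 5.73, SE 0.51, adjusted p = 3.3e-07). COL24A1, a fibrillar collagen, stood at 2.94, 2.595 and 2.56 CPM with DMSO and 30.8, 53.2 and 31.3 CPM with RMC-4550. ACY3, an aminoacylase, stood at 2.61, 3.34 and 3.73 CPM with DMSO and 37.1, 54.7 and 34.95 CPM with RMC-4550. SEMA6A, a semaphorin, stood at 15.3, 14.8 and 13.7 CPM with DMSO and 99.7, 110.4 and 100.1 CPM with RMC-4550. MAP1A, a microtubule protein, and SDS, which degrades serine, rose by 3.09 and 2.57. The largest falls held the replication genes MCM10 and DTL, the cell cycle phosphatase CDC25A, the cohesin acetyltransferase ESCO2 and E2F7, together with INAVA, which supports innate immune signalling, at 19, 18.6 and 21.4 CPM with DMSO and 5.47, 2.88 and 3.902 CPM with RMC-4550. TUBA1B, an alpha tubulin, stood at 172, 176 and 196 CPM with DMSO and 76.6, 13.1 and 64.9 CPM with RMC-4550, and its change of -2.17 was -1.36 without treated replicate 2.

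**Figure D4:**
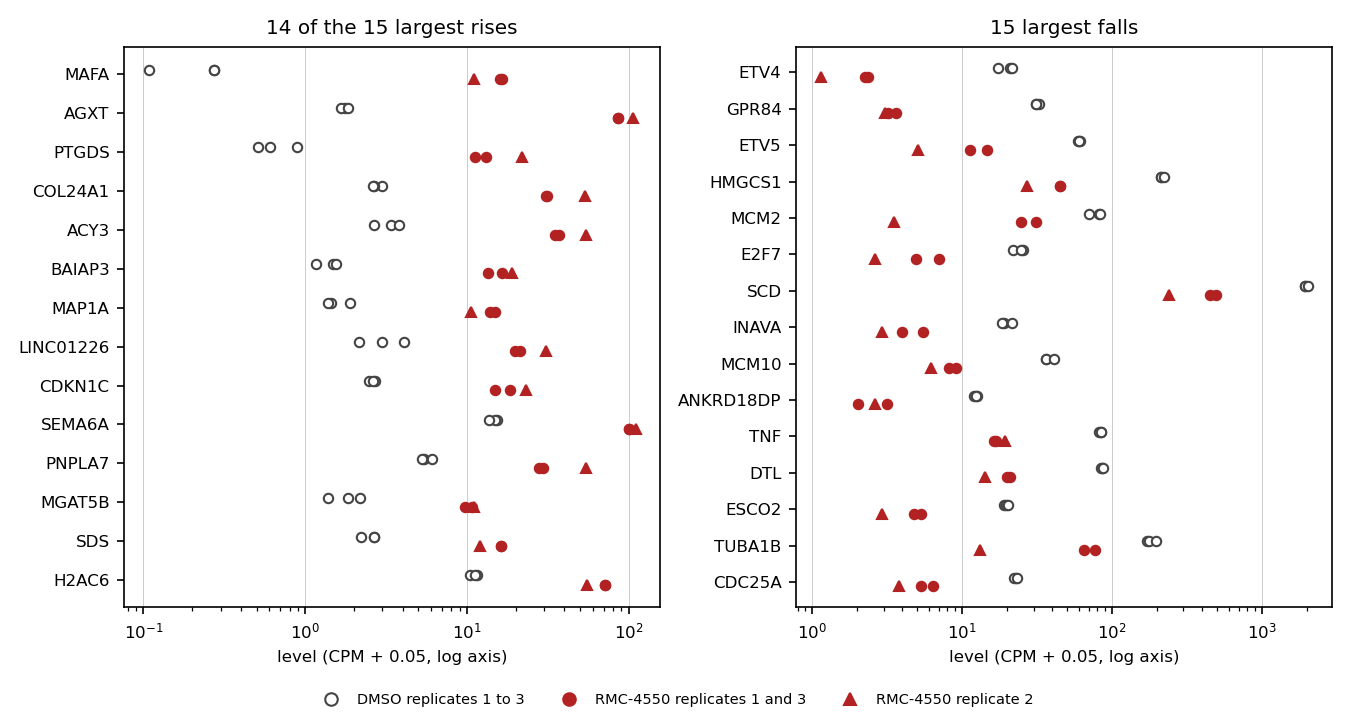
Level of 14 of the 15 genes with the largest rises (left) and of the 15 with the largest falls (right) in each Molm-14 library, as CPM plus 0.05 on a log axis, for called genes with a mean of at least 10 CPM in the higher group and no overlap. White circles are DMSO libraries, red circles treated replicates 1 and 3, red triangles treated replicate 2. MCM2 and TUBA1B are the falls in which replicate 2 lies farthest from the other treated libraries.

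In terms of reads moved, other genes led. The largest gains in CPM among called genes were those of TPT1, which codes for a tumour protein under translational control, and of the ribosomal proteins RPLP1 and RPL13. TPT1 stood at 3319, 3190.5 and 3162 CPM with DMSO and 3742, 6286 and 4217 CPM with RMC-4550, and the calls of TPT1 and RPL13 were lost without treated replicate 2. ANXA4, an annexin, stood at 873, 871 and 854 CPM with DMSO and 1670.3, 1617 and 1709 CPM with RMC-4550. SLC6A8, the creatine transporter, stood at 785, 805 and 823 CPM with DMSO and 1631, 1382 and 1552 CPM with RMC-4550. MT2A, a metallothionein, stood at 335, 339 and 345 CPM with DMSO and 663, 1101 and 697 CPM with RMC-4550. These 3 genes were called with and without that library. The largest loss was that of SCD, followed by HSP90AB1, ENO1 and the actin bundling protein LCP1, at 1341, 1381 and 1376 CPM with DMSO and 695, 441 and 696 CPM with RMC-4550. TUBB, a beta tubulin, went from 1068 ± 7.36 to 421 ± 87.4 CPM, and TMSB4X, which binds actin monomers, from 1365 ± 28 to 789 ± 176 CPM.

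A few genes were read almost only on 1 side. PDGFB, a growth factor, had 2 reads or fewer in each DMSO library and 20 to 38 in each treated one, at least 10.8-fold higher against the floor. OCSTAMP, a transmembrane protein of osteoclast fusion, had 96 to 118 reads in the DMSO libraries and 3 or fewer in the treated ones, at least 34.4-fold lower. ANGPT1, which encodes angiopoietin 1, had 82 to 89 and 3 or fewer, at least 27.7-fold lower. Both fell in each treated library to this floor. Each of these folds divides the mean CPM of the higher group by the floor. None carries an interval for counting error or for the spread of that mean.

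More non-coding genes were called higher than lower. Of 1073 tested genes annotated as lincRNA or antisense RNA, 437 were called higher (40.7%) and 67 lower (6.24%), whereas of 11496 protein-coding genes 2260 were called higher (19.7%) and 3360 lower (29.2%). Between 1.48 and 5.93 CPM, the middle range of the non-coding genes, 43.2% of 537 non-coding and 30.9% of 1419 coding genes were called higher, and 5.77% and 15.9% lower. Without treated replicate 2 the shares called higher were 34.0% of non-coding and 18.8% of coding genes. Within the same middle range of levels they were 35.4% and 26.8%. MIR222HG, a microRNA host gene, was among those that fell, at 5.39, 5.48 and 5.57 CPM with DMSO and 0.547, 0.705 and 0.509 CPM with RMC-4550 (log2 change -3.17, SE 0.26, adjusted p = 1.6e-07). CCDC26 went from 36.7 ± 2.26 to 15.4 ± 10.3 CPM and was called lower, and HIF1A-AS3 went from 13.4 ± 0.332 to 80.1 ± 24.5 CPM and was called higher. These 3 genes were chosen after their values were seen. The counting rule for strand is not given in the sources used here, so reads of an antisense gene and its partner may not be told apart.

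The response of Molm-14 was compared with that of the other lines by testing the difference of the log2 changes. Against MV4-11, the response was higher for 1393 of 13482 genes (10.3%) and lower for 1228 (9.11%). Against SKNO-1 it was higher for 870 of 12905 genes (6.74%) and lower for 533 (4.13%). Both comparisons use the same Molm-14 libraries, so they are not independent, and SKNO-1 also differed by GM-CSF and genotype, which cannot be told apart from the line. The libraries of MV4-11 also differed within groups. Mitochondrially encoded genes made up 12.7%, 5.87% and 14.6% of the reads of its DMSO replicates 1, 2 and 3, and 10.5%, 5.91% and 7.02% of those of its treated replicates, so that the mean share was lower with RMC-4550 in MV4-11, where that of Molm-14 was higher through treated replicate 2. With the mitochondrial share as a covariate, the response was above that of MV4-11 for 1676 genes and below it for 1315. DMSO replicate 2 and treated replicate 1 of MV4-11 stood apart from the others of their groups. The part of this in the differences between lines was also measured by leaving out single libraries. The counts against MV4-11 depended on them: they were 2675 and 3222 without its DMSO replicate 2, 1954 and 1862 without its treated replicate 1, and from 749 to 867 and from 650 to 754 without its DMSO replicate 1 or 3 or treated replicate 2 or 3. Without treated replicate 2 of Molm-14 they were 1035 and 907, and leaving out a DMSO library of Molm-14 gave 910 to 936 and 780 to 832. Without SKNO-1 DMSO replicate 2 the counts against that line were 571 and 355.

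Among genes whose response was above that of both other lines, CDKN1C changed by 2.84 ± 0.202, 0.700 ± 0.202 and 0.65 ± 0.202 (log2 change ± SE), in the order Molm-14, MV4-11, SKNO-1. The difference was 2.14 ± 0.29 (adjusted p = 0.0002) against MV4-11 and 2.19 ± 0.29 (adjusted p = 0.00014) against SKNO-1. ACY3 changed by 3.68 ± 0.23, 0.98 ± 0.23 and 1.03 ± 0.23 in the same order and BAIAP3 by 3.56 ± 0.23, 1.202 ± 0.23 and 0.198 ± 0.23, so that both had their largest change in Molm-14. LPAR6, a receptor for lysophosphatidic acid, rose in Molm-14 and fell in the other lines, with changes of 1.49 ± 0.22, -0.87 ± 0.22 and -0.65 ± 0.22. PNPLA7, a lysophospholipase, and MEGF6 were called higher in Molm-14 and not called in the others. The differences themselves passed the test, at 2.48 ± 0.35 (adjusted p = 0.00032) and 2.03 ± 0.35 (adjusted p = 0.0016) for PNPLA7. For MEGF6 they were 2.44 ± 0.25 (adjusted p = 2.6e-05) and 1.94 ± 0.25 (adjusted p = 0.00012). Mean levels with DMSO were unlike for some genes. In the same order, PNPLA7 stood at 5.53, 37.9 and 29.9 CPM, and at 37.1 CPM in treated Molm-14. MEGF6 stood at 2.55, 12.99 and 14.6 CPM, and at 11.1 CPM in treated Molm-14. CDKN1C stood at 2.55, 8.8 and 8.1 CPM (treated Molm-14 18.7), and BAIAP3 at 1.35, 4.05 and 2.86 CPM (treated Molm-14 16.3). ACY3 and LPAR6 had like DMSO levels, at 3.23, 2.19 and 2.55 CPM and at 7.54, 8.89 and 6.86 CPM.

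Among genes whose response was below that of both, PAX5, the B cell factor, changed by -1.25 ± 0.28, 0.27 ± 0.28 and 1.88 ± 0.28 in that order. The difference was -1.52 ± 0.397 (adjusted p = 0.016) against MV4-11 and -3.13 ± 0.397 (adjusted p = 0.00011) against SKNO-1. PAX5 was low in SKNO-1, at 0.525 ± 0.188 CPM with DMSO and 1.96 ± 0.483 CPM with RMC-4550. It entered that comparison through the treated libraries of SKNO-1. In Molm-14 it went from 15.8 ± 1.09 to 6.78 ± 1.91 CPM. IL15RA, the receptor for interleukin 15, changed by -1.06 ± 0.13, 0.51 ± 0.13 and 0.83 ± 0.13, and PRKCE, a protein kinase C, by -0.77 ± 0.23, 0.75 ± 0.23 and 1.24 ± 0.23: both fell in Molm-14 and rose in the other lines. In Molm-14, PRKCE lost its call without treated replicate 2 (adjusted p = 0.077). DDX60, an interferon-induced helicase, changed by -0.43 ± 0.24, 1.101 ± 0.24 and 1.84 ± 0.24 and was not called in Molm-14, in which it stood at 36.5, 35.3 and 35.9 CPM with DMSO and 32.4, 18.5 and 31.6 CPM with RMC-4550. UBASH3B, a phosphatase that dampens receptor signalling, and ST14, a membrane protease, were called lower in Molm-14 and not called in the other lines, with differences of -1.79 ± 0.301 (adjusted p = 0.0013) and -1.58 ± 0.301 (adjusted p = 0.0029) for UBASH3B and of -1.496 ± 0.37 (adjusted p = 0.012) and -1.82 ± 0.37 (adjusted p = 0.0043) for ST14.

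**Figure D5:**
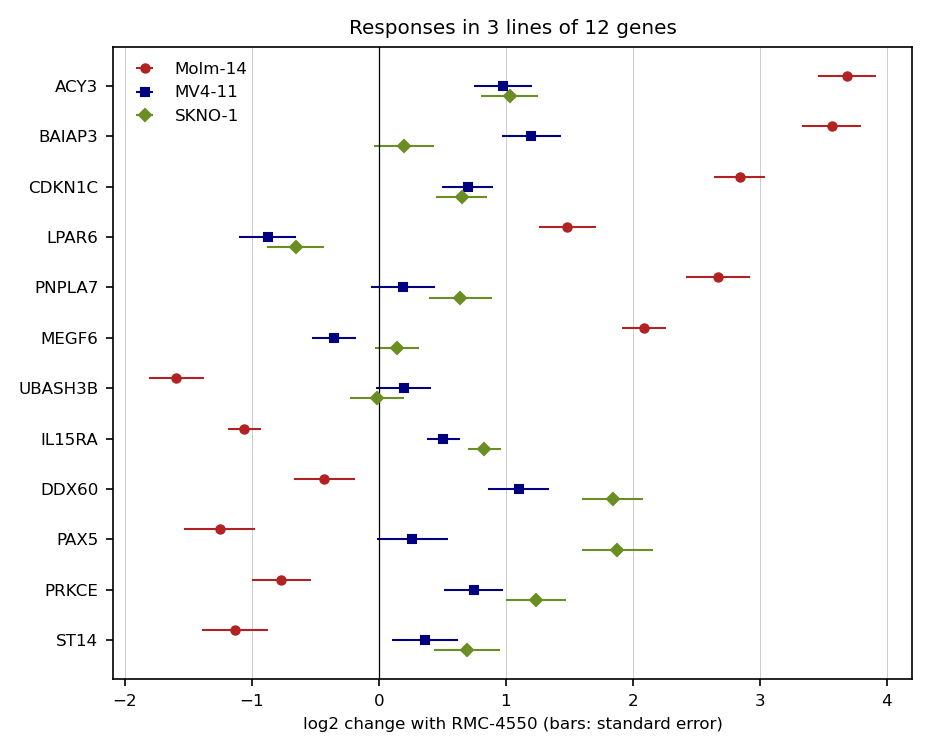
Log2 change with RMC-4550 of the 12 genes named in the comparison of lines, shown for Molm-14, for MV4-11 and for SKNO-1, with bars of 1 SE. The 6 upper genes have their highest value in Molm-14 and the 6 lower genes their lowest.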

How the data were processed

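The deposited table holds 1 column of log2 values per library. The values behave as log2(CPM) with an offset of 0.5 reads, scaled by the authors: in every library of Molm-14, all values under 50 reads gave whole reads within 0.05, from which reads and CPM were computed. FastQC, STAR, limma and GRCh38 are named per the submitters' processing notes, with no version. The counting rule is not given in the sources used here. RNA was purified on oligo(dT) beads and the libraries were read on DNA nanoballs, per the labels' protocols.

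All 18 libraries were fitted in limma 3.58.1 (R 4.3.3) on the deposited log2 values, with empirical Bayes moderation that follows a mean-variance trend and a group mean for each of 6 groups of 3, so that all groups share the estimate of spread. Genes at 1 CPM or more in at least 3 of the 6 Molm-14 libraries were tested, with Benjamini-Hochberg adjusted p under 0.05 taken as a call. Of genes named in the text, RASAL1, SIGLEC1, IFI44L, OASL, ALOX5, PTGDS, MAFA and PDGFB passed this filter through the treated group alone. ETV1, MIR222HG, OCSTAMP and ANGPT1 passed it through the DMSO group alone. Their calls, and their part in counts of list members, depend on the filter. Levels in the text are CPM, and fold changes are differences of log2 means. Reads per library limit the precision of low genes. On simulated data with 200 changed genes among 13660, 81 of 100 changed 2-fold and 97 of 100 changed 4-fold were recovered, and 2.73% of 183 calls were unchanged genes. The simulation gave every gene the same spread beyond counting error, and held no library that stood apart as treated replicate 2 did. Far more genes were called in the measured data. These rates therefore do not carry over to the measured libraries.

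Of 14016 gene symbols tested, 9930 had a promoter in the RefSeq table (GRCh38.p14). Gene classes came from GENCODE. The members and gene lists were chosen with earlier results of these data known. Named were PTPN11 and FLT3, up to 6 called members of each list in each direction by size, members that complete a role, the 15 largest changes each way, the 10 largest gains and losses of CPM, genes at the read floor, and the 6 largest differences between lines each way. Further list members named to complete a role were chosen after their values were seen. The alternatives were another pseudocount, other filters and scalings, Molm-14 alone, a replicate block, voom weights, the mitochondrial share as a covariate, and each library left out. Results of some genes are not reported here.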

Additional observations from a re-analysis of the deposited data

Results flagged for a closer look

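The response to RMC-4550 differed between Molm-14 and both other lines for 12 genes named in the text, by limma's test of the difference itself. As log2 differences (Molm-14 minus the other line), ACY3 was 2.71 above MV4-11 and 2.65 above SKNO-1, BAIAP3 2.36 and 3.37, and CDKN1C 2.14 and 2.19. In the same order, LPAR6 was 2.36 and 2.14 above, PNPLA7 2.48 and 2.03, and MEGF6 2.44 and 1.94. On the other side, UBASH3B had differences of -1.79 and -1.58, IL15RA of -1.57 and -1.89, and DDX60 of -1.53 and -2.27. PAX5, which was low in SKNO-1, had -1.52 and -3.13, PRKCE -1.51 and -2.003, and ST14 -1.50 and -1.82. The genes were the largest by rule, and both comparisons share the Molm-14 libraries. PNPLA7, MEGF6, CDKN1C and BAIAP3 had a lower mean level with DMSO in Molm-14 than in either other line.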

How the results depend on the processing

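Over 15 alternatives, the counts of genes called higher and lower in Molm-14 stayed within 1.5 times of 3009 and 3525. Leaving out each Molm-14 library gave 2562 to 2993 and 2840 to 3827. With the Molm-14 libraries fitted alone, the counts were 2493 and 2840. Calls in the higher direction made up 46.1%, and 38.8% to 51.3% over the alternatives. Of 239 called genes named in the text, 209 kept the call under every alternative. The calls lost numbered 24 without treated replicate 2, 23 with Molm-14 fitted alone, 13, 15 and 18 without DMSO replicates 1, 2 and 3, and 0 to 10 under each other alternative. With Molm-14 fitted alone, BST2, CCND3, CCR1 and SOCS2 were among those that lost theirs. The direction of LTA4H, which was not called, was reversed with the mitochondrial share as a covariate (log2 change 0.15), and the cause was not tested. With that covariate, 2258 genes were above and 1430 below the response of SKNO-1, against 870 and 533, and the cause was not tested. Leaving out each library gave 749 to 2675 and 650 to 3222 genes above and below the response of MV4-11, and 571 to 912 and 355 to 616 for SKNO-1. None of the 24 differences between lines named in the text lost its call in the 408 alternative values. Deviations of same-numbered DMSO and treated libraries of Molm-14 from their group means had correlations of -0.10, -0.03 and 0.05. Treated replicate 2 stood apart and sets much of the treated deviations, so these values cannot show whether the numbers pair the libraries. With a replicate block the counts were 3137 and 3820 in Molm-14, 1631 and 1598 against MV4-11, and 933 and 586 against SKNO-1. Genes of a few reads were limited by depth, and the list medians of BCL2 family, FOXO-linked, receptor, integrin, iron, NF-kB, STAT5-linked, other-lineage and mitochondrially encoded genes changed sign among the alternatives.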
